A study of Homo sapiens with 6 samples.

Results

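The subject here is a set of 50 human genes of interferon signalling and the interferon response, chosen by symbol and not by a cut on measured values. The choice was made with earlier results of these data known. All 50 symbols matched 1 row each of a count table of 58051 Ensembl genes, and 45 of them had enough counts to be tested. The genes were measured by bulk RNA-seq in A375 cells, an established human melanoma line with a mutant BRAF gene. The 3 TGFB1 libraries came from cells given 10 ng/mL of recombinant human TGFB1, a growth factor that signals through SMAD proteins, for 2 h after 2 h without serum. The 3 Vehicle libraries came from cells given 4 mM HCl with 1 mg/mL BSA for the same time after the same starvation. Both groups are this 1 line grown in the same medium, the labels name no interferon treatment, and the design text calls the replicates technical. The p-values therefore measure the spread between these libraries, which may be technical, and not that between independent experiments.

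Type I interferons such as IFNB1 bind the receptor pair IFNAR1 and IFNAR2, and type II interferon binds IFNGR1 and IFNGR2. At the type I receptor the kinases JAK1 and TYK2 phosphorylate STAT proteins. STAT2 joins IRF9 in the complex that binds the interferon-stimulated response element (ISRE) in front of target genes. The targets encode antiviral proteins, among them RNA sensors, the IFIT proteins that bind viral RNA or each other, the OAS enzymes and the MX GTPases. Many of them are also expressed at a low level in cells that have met no added interferon.

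The 250 bases before annotated starts were searched for ISRE-type letters, GAAA, any 2 bases and GAAA again, on either strand, in RefSeq promoters of build GRCh38.p14. Of the 38 members with a promoter in that table, 22 (57.9%) held a match, against 1014 of 27305 genes with a promoter (3.71%). Members without an entry were DHX58, GBP2, IFIT2, IFITM2, IFNAR2, IRF2, IRF3, IRF7, MX2, OAS2, OASL and USP18. The interferon gamma-type letters TTCNNNGAA stood in 10 of the 38 (26.3%), against 8.09% of all genes with a promoter, and these letters can overlap an ISRE match. The palindrome GTCTAGAC, a SMAD-binding sequence, stood in 0 of the 38 and in 0.231% of all. It is so rare that 38 promoters are too few to show a lower share. The promoter stretches of 3 IFIT genes are shown because this family carried the changes described below. They end where the first annotated exon (GENCODE 29) or the RefSeq start begins, and capitals mark the ISRE-type matches, which here read as TTTC, 2 bases and TTTC because the GAAA letters lie on the minus strand. All 3 are on the plus strand: IFIT3 at chr10:89327747-89327893, IFIT1 at chr10:89392396-89392545 and IFIT5 at chr10:89414418-89414567.
IFIT3: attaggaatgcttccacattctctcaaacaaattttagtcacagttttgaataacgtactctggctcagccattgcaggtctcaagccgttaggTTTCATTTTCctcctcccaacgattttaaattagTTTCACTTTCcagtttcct
IFIT1: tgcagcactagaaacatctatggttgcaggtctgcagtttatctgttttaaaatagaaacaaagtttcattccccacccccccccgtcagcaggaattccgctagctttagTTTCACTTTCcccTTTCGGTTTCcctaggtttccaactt
IFIT5: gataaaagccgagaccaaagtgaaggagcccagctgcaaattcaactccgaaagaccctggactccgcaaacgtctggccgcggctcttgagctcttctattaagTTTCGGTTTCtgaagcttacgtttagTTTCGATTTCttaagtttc
Each of these stretches holds 2 matches. IFIT3 and IFIT1 share the letters TTTCACTTTC, which in IFIT3 begin 122 bases before its RefSeq start and in IFIT1 116 bases before. IFIT1 and IFIT5 share the letters TTTCGGTTTC. A second annotated start of IFIT3 also had 2 matches before it, one of them TTTCACTTTC. A match describes the letters only.

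Library totals ran from 32458753 to 34895075 counts with TGFB1 and from 24713894 to 34374668 in Vehicle. On the first principal component (28.9% of variance) the TGFB1 libraries lay on one side and the Vehicle libraries on the other, Vehicle replicate 1 being farthest out. The TGF-beta target genes SMAD7, SKIL, SNAI1 and PMEPA1 were all higher with TGFB1, with log2 fold changes of 2.70, 1.47, 1.98 and 1.25. Melanoma surface genes such as CSPG4 (239.2 CPM with TGFB1, 225.7 CPM in Vehicle) were detected, while the melanocyte factor SOX10 had 0 counts in all 6 libraries. Of 15 melanocytic or melanoma markers 12 were tested. MITF alone had an adjusted p under 0.05 (0.036, edgeR), at 53.5 CPM with TGFB1 and 62.4 CPM in Vehicle. PMEL, MLANA, TYR and TYRP1 averaged at most 0.91 CPM in either group, and DCT 3.58 CPM with TGFB1 and 5.05 CPM in Vehicle. The 7 markers of dedifferentiated melanoma summed to 1409 to 1546 CPM with TGFB1 and 1341 to 1452 CPM in Vehicle. CPM are counts scaled to the total of the library. Of 14 leukocyte markers 1 passed the low-count filter, the lysozyme gene LYZ. Their summed level was 5.76 to 6.94 CPM with TGFB1 and 6.55 to 7.81 CPM in Vehicle. LYZ carried most of it, at 6.06 CPM with TGFB1 and 6.59 CPM in Vehicle. It shares 34.0% of its exon length with a gene on the other strand. CD68 shares 81.7% with another gene on the same strand, so its low counts are uncertain. The sums of the endothelial, epithelial and fibroblast markers all lay within 13.3 to 19.3 CPM, the range of the endothelial sum in Vehicle. Single genes carried much of each sum. KDR had 14.8 CPM with TGFB1 and 15.6 CPM in Vehicle, and KRT14 16.5 CPM with TGFB1 and 14.5 CPM in Vehicle. LUM had 7.77 CPM with TGFB1 and 9.66 CPM in Vehicle. Plasmacytoid dendritic cells, known interferon producers, are marked by CLEC4C, which had at most 0.115 CPM in any library.

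At baseline the interferon genes covered a wide range of levels. On a per-length scale (TPM, counts divided by the exon length in GENCODE 29 and scaled to a fixed total), 22 members averaged at least 10 TPM in Vehicle, 20 lay between 1 and 10 TPM and 8 were under 1 TPM. The median over the 45 tested members was 8.90 TPM in Vehicle, against 9.21 TPM over all tested genes. The highest was IFITM3, whose protein blocks viral entry at membranes, at 136.2 ± 14.5 TPM with TGFB1 and 109.9 ± 24.1 TPM in Vehicle (SD, n = 3 each). JAK1 followed at 72.7 ± 5.05 TPM with TGFB1 and 75.4 ± 5.47 TPM in Vehicle, and IFNGR2 at 73.6 ± 4.09 TPM with TGFB1 and 64.8 ± 3.28 TPM in Vehicle. These 2 levels did not differ beyond their spread with TGFB1. IFIT5, the small membrane protein gene IFI6, IFIT3 and IFI44 came next in Vehicle, between 40.2 and 58.6 TPM. The 8 genes under 1 TPM were SOCS1, IFI44L, IRF9, RSAD2, IFI27, OASL, XAF1 and IFNB1. The summed level of all 50 members was 1060 to 1108 CPM with TGFB1 and 1075 to 1121 CPM in Vehicle, and the groups overlapped.

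**Figure D1:**
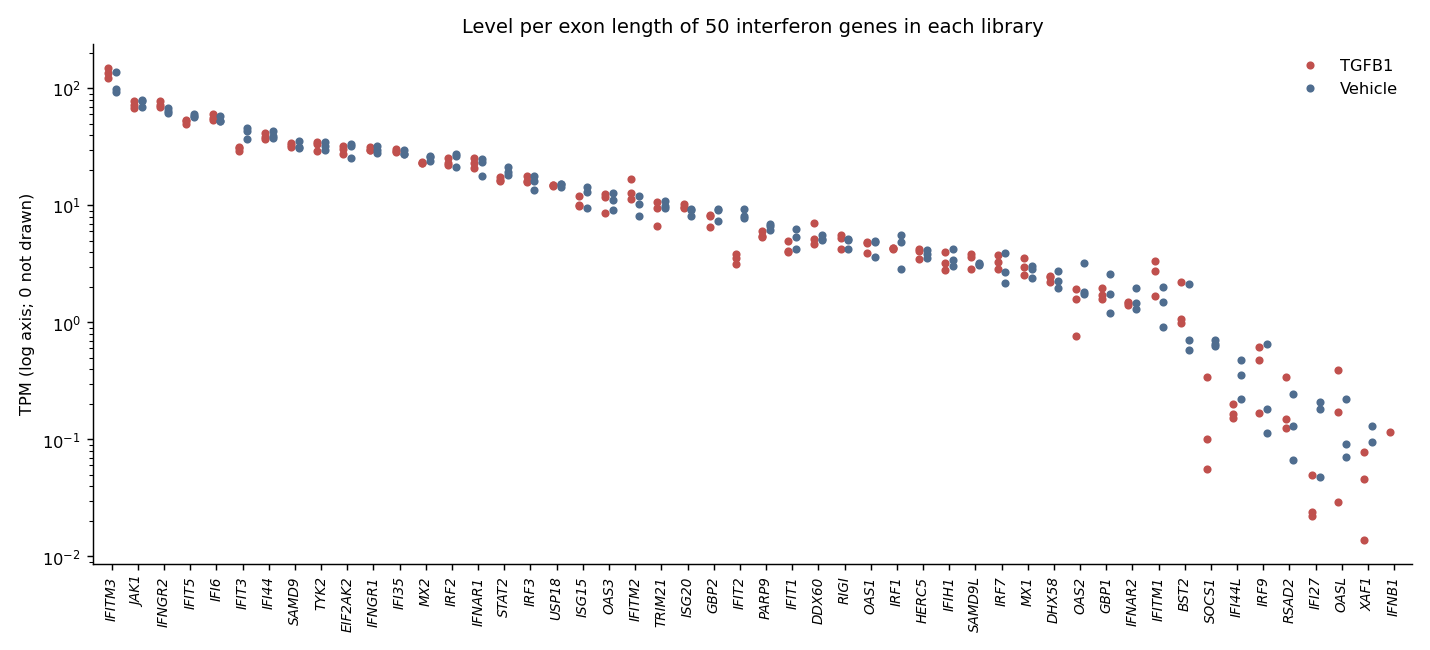
Level per exon length (TPM, log axis) of the 50 interferon genes in each library, ordered by their Vehicle mean; each point is 1 library, with TGFB1 left of Vehicle. The points of most genes lie together in both groups, while those of IFIT2 and IFIT3 are lower with TGFB1 and the genes under 1 TPM scatter.

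The comparison asks whether 2 h of TGFB1 changed these genes. IFIT2 and IFIT3 fell and no other tested member passed the threshold, an adjusted p under 0.05 in edgeR's quasi-likelihood test with Benjamini-Hochberg adjustment over all 16690 tested genes. That is 2 of 45 tested members (4.44%), against 3.31% of all tested genes called in either direction. Both calls were lower with TGFB1, where the background is 0.887% lower and 2.43% higher, and 0 of 45 members were called higher. The 0 higher members compare with 3 that were higher at an unadjusted p under 0.05, and DESeq2 and limma-voom also called 0 higher. In bulk RNA, fewer cells with a transcript and less of it per cell cannot be told apart.

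The median log2 fold change of TGFB1 over Vehicle was -0.01 over the 45 tested members and -0.01 over all tested genes, and 23 of 45 members (51.1%) lay below 0, against 52.0% of all tested genes. The interquartile range ran from -0.17 to 0.06 among members and from -0.10 to 0.11 among all genes. At an unadjusted p under 0.05 there were 12 members (26.7%, against 12.3% of all tested genes), of which 9 were lower (20%, against 4.87%) and 3 higher (6.67%, against 7.41%). The groups did not overlap in 10 members (22.2%, against 16.4% of all tested genes). In 8 members all TGFB1 libraries lay below all Vehicle libraries (17.8%, against 7.32%), and in 2 above (4.44%, against 9.04%). None of these shares is tested as a list, and the members were chosen with earlier results of these data known. Besides IFIT2 and IFIT3, the 12 were STAT2, IFIT5, SOCS1, MX2, PARP9, IFI44L and OAS2 on the lower side and IFNGR2, IFITM2 and IFITM3 on the higher side.

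**Figure D2:**
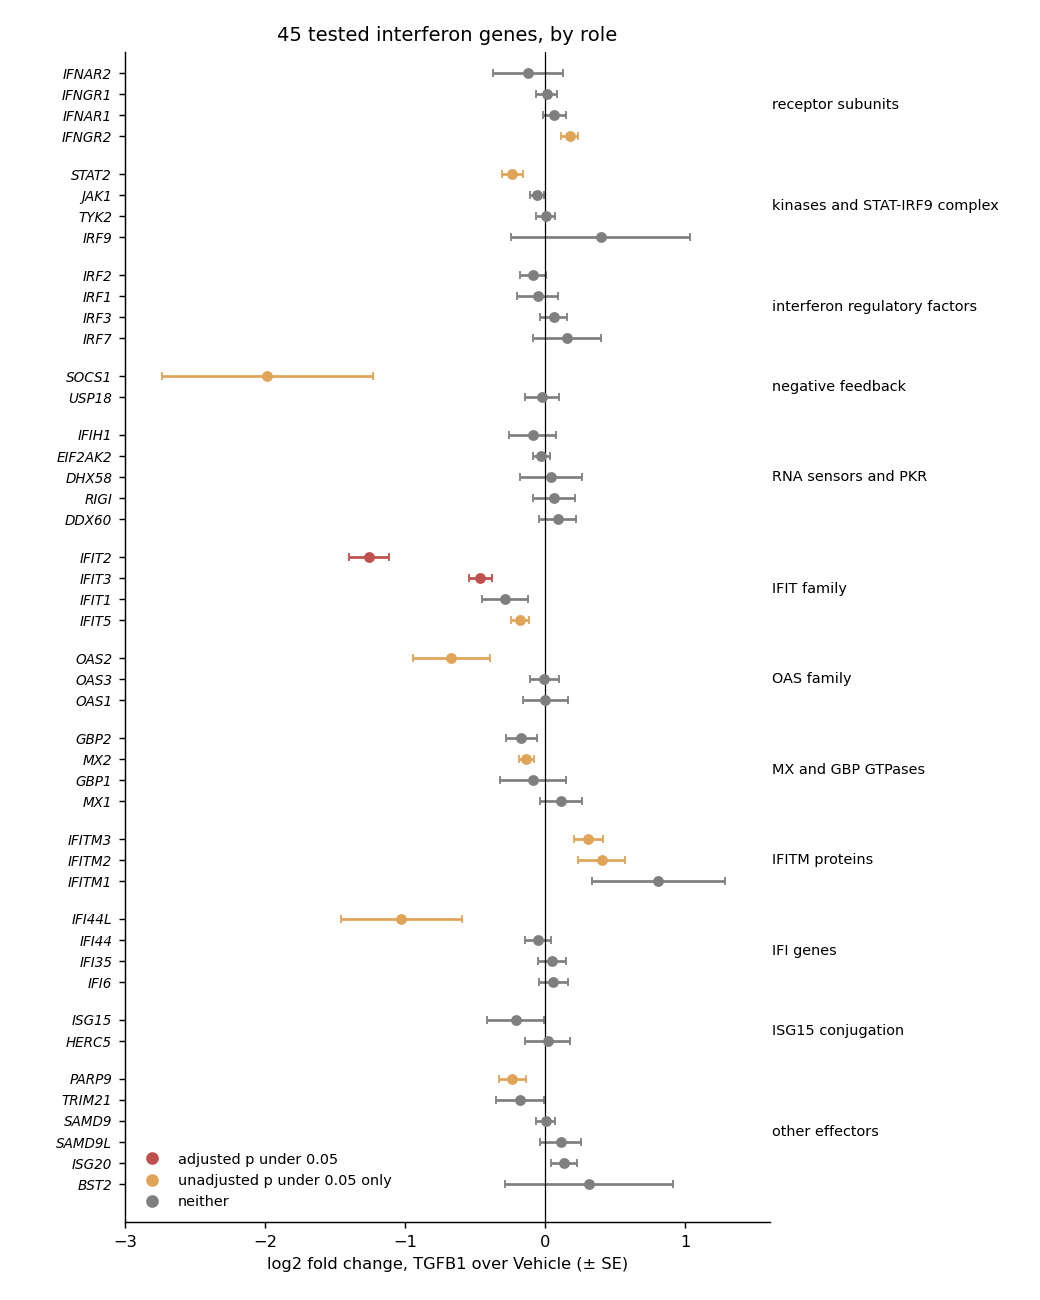
Log2 fold change of TGFB1 over Vehicle (point) with its SE (bar) for the 45 tested interferon genes, grouped by role. IFIT2 and IFIT3 (red) are past the adjusted threshold; 10 genes (orange) have an unadjusted p under 0.05 alone, and wide bars belong to genes with few counts such as SOCS1 and IRF9.

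The ligand gene IFNB1 was not detected beyond a single read. It had 0, 0 and 1 counts in the TGFB1 libraries and 0 counts in each Vehicle library, where 3 counts, the limit that a count of 0 allows, would be 0.0873 to 0.121 CPM. These limits cover counting error alone. The other 8 ligand genes examined were all under the filter. IFNL1, IFNL2 and IFNL3 had 0 counts in all 6 libraries, and IFNA1, IFNK and IFNG had at most 1 count in any library. IFNE had 1, 5 and 12 counts with TGFB1 and 0, 9 and 8 counts in Vehicle. IFNW1 had 0, 6 and 0 counts with TGFB1 and 0 counts in each Vehicle library.

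The receptor genes were expressed in both groups and none of the 4 passed the test. IFNAR1 stood at 47.9, 41.2 and 44.6 CPM with TGFB1 and at 36.3, 46.9 and 43.5 CPM in Vehicle, so the groups overlapped. IFNGR2, the signal-transducing chain of the interferon gamma receptor, had 69.2, 65.1 and 66.1 CPM with TGFB1 and 59.1, 60.8 and 56.6 CPM in Vehicle. Each TGFB1 library was above each Vehicle library, and the log2 fold change was 0.17 ± 0.06 (SE, adjusted p = 0.15, edgeR). Some of its exon length (12.8%) is shared with TMEM50B on the other strand, whose log2 fold change was 0.02. IFNGR1, the ligand-binding chain, had a log2 fold change of 0.01 ± 0.08 (SE). IFNAR2 had 2.06 ± 0.03 CPM with TGFB1 and 2.23 ± 0.42 CPM in Vehicle (SD, n = 3 each), and its level is uncertain because 44.2% of its exon length is shared with the readthrough gene IFNAR2-IL10RB, itself at 0 counts, and 39.1% with IL10RB-DT on the other strand. IL10RB-DT had 7, 11 and 6 counts with TGFB1 and 1, 0 and 0 counts in Vehicle, and its part in the IFNAR2 value was not tested.

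Of the 4 kinase and transcription complex genes, STAT2 stood apart, though it did not pass. It had 31.9, 31.2 and 31.0 CPM with TGFB1 and 38.2, 33.2 and 38.6 CPM in Vehicle, without overlap; the log2 fold change was -0.23 ± 0.08 (SE, adjusted p = 0.11, edgeR). The kinase genes JAK1 and TYK2 had log2 fold changes of -0.06 ± 0.05 and 0.00 ± 0.07 (SE). IRF9, the DNA-binding partner of STAT2, had 4 to 23 counts a library and a log2 fold change of 0.40 ± 0.64 (SE). Its low counts are uncertain, since 48.4% of its exon length is shared with another gene on the same strand that had 1 to 8 counts a library.

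None of the 4 interferon regulatory factor genes passed the test, with log2 fold changes between -0.09 and 0.16. IRF2, a repressor that competes with IRF1, had 20.8, 24.96 and 22.0 CPM with TGFB1 and 21.4, 25.6 and 24.6 CPM in Vehicle. IRF3, which is activated by RNA and DNA sensing, had 20.3, 18.9 and 19.0 CPM with TGFB1 and 16.8, 18.4 and 20.2 CPM in Vehicle. Both overlapped between the groups. IRF1, an early interferon gamma target, was tight with TGFB1 (10.3 ± 0.25 CPM, SD, n = 3) and spread in Vehicle (10.52 ± 2.89 CPM, SD, n = 3). Some of the IRF3 exon length (19.3%) is shared with BCL2L12 on the other strand, whose log2 fold change was 0.28 ± 0.12 (SE). For IRF1 22.0% is shared with IRF1-AS1 and another gene on the other strand. The part of these genes in the IRF3 and IRF1 values was not tested.

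Of the feedback genes, USP18, whose product removes ISG15 from proteins and blocks IFNAR2, had 9.62, 9.71 and 9.70 CPM with TGFB1 and 10.52, 9.82 and 9.11 CPM in Vehicle, a log2 fold change of -0.03 ± 0.12 (SE). SOCS1, an inhibitor of JAK kinases, had 6, 2 and 1 counts with TGFB1 and 9, 11 and 13 counts in Vehicle. Its groups did not overlap, but its log2 fold change of -1.98 ± 0.75 (SE, adjusted p = 0.20, edgeR) rests on few reads and did not pass. It was -2.94 without TGFB1 replicate 1 and -1.59 without TGFB1 replicate 3. A ratio of its means, 0.09 CPM with TGFB1 to 0.37 CPM in Vehicle, has the same limit.

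The 5 RNA sensor and PKR genes lay close to 0, with log2 fold changes from -0.09 to 0.09 and adjusted p from 0.88 to 0.98 (edgeR). EIF2AK2, which encodes the RNA-activated kinase PKR, was the most abundant, at 103.0, 92.8 and 99.97 CPM with TGFB1 and 88.1, 104.1 and 107.1 CPM in Vehicle. DDX60, a helicase gene, had 10.45, 9.92 and 14.6 CPM with TGFB1 and 11.2, 11.3 and 10.2 CPM in Vehicle. In both the groups overlapped, and neither had a stable direction when single libraries were left out. RIGI, which senses RNA with a 5′ triphosphate, and IFIH1, which encodes the long-RNA sensor MDA5, had log2 fold changes of 0.06 ± 0.15 and -0.09 ± 0.17 (SE).

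All 4 IFIT members had negative log2 fold changes, under each scaling tried, and those of IFIT2 and IFIT3 passed. IFIT2, whose product binds RNA and promotes cell death, had 4.70, 4.10 and 4.498 CPM with TGFB1 and 10.7, 11.4 and 9.54 CPM in Vehicle. Every TGFB1 library lay below every Vehicle library, and IFIT2 fell to 0.418 of its Vehicle level (log2 fold change -1.26 ± 0.14, SE, adjusted p = 1.0e-07, edgeR). IFIT3, which stabilises IFIT1 as its partner, had 24.5, 26.3 and 23.5 CPM with TGFB1 and 31.4, 34.6 and 35.9 CPM in Vehicle. It fell to 0.726 of its Vehicle level without overlap between the groups (log2 fold change -0.46 ± 0.08, SE, adjusted p = 0.00028, edgeR).

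IFIT5 and IFIT1 had smaller values and did not pass. IFIT5, which binds RNA with a 5′ phosphate, had 64.1, 66.2 and 61.7 CPM with TGFB1 and 76.0, 73.1 and 67.8 CPM in Vehicle, without overlap. Its log2 fold change was -0.18 ± 0.06 (SE, adjusted p = 0.13, edgeR), and it passed without Vehicle replicate 3 (adjusted p = 0.015). IFIT1, which binds RNA lacking cap methylation, had 5.69, 7.14 and 5.64 CPM with TGFB1 and 9.31, 7.42 and 5.82 CPM in Vehicle, and the groups overlapped. Its log2 fold change was -0.29 ± 0.16 (SE, adjusted p = 0.52, edgeR).

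**Figure D3:**
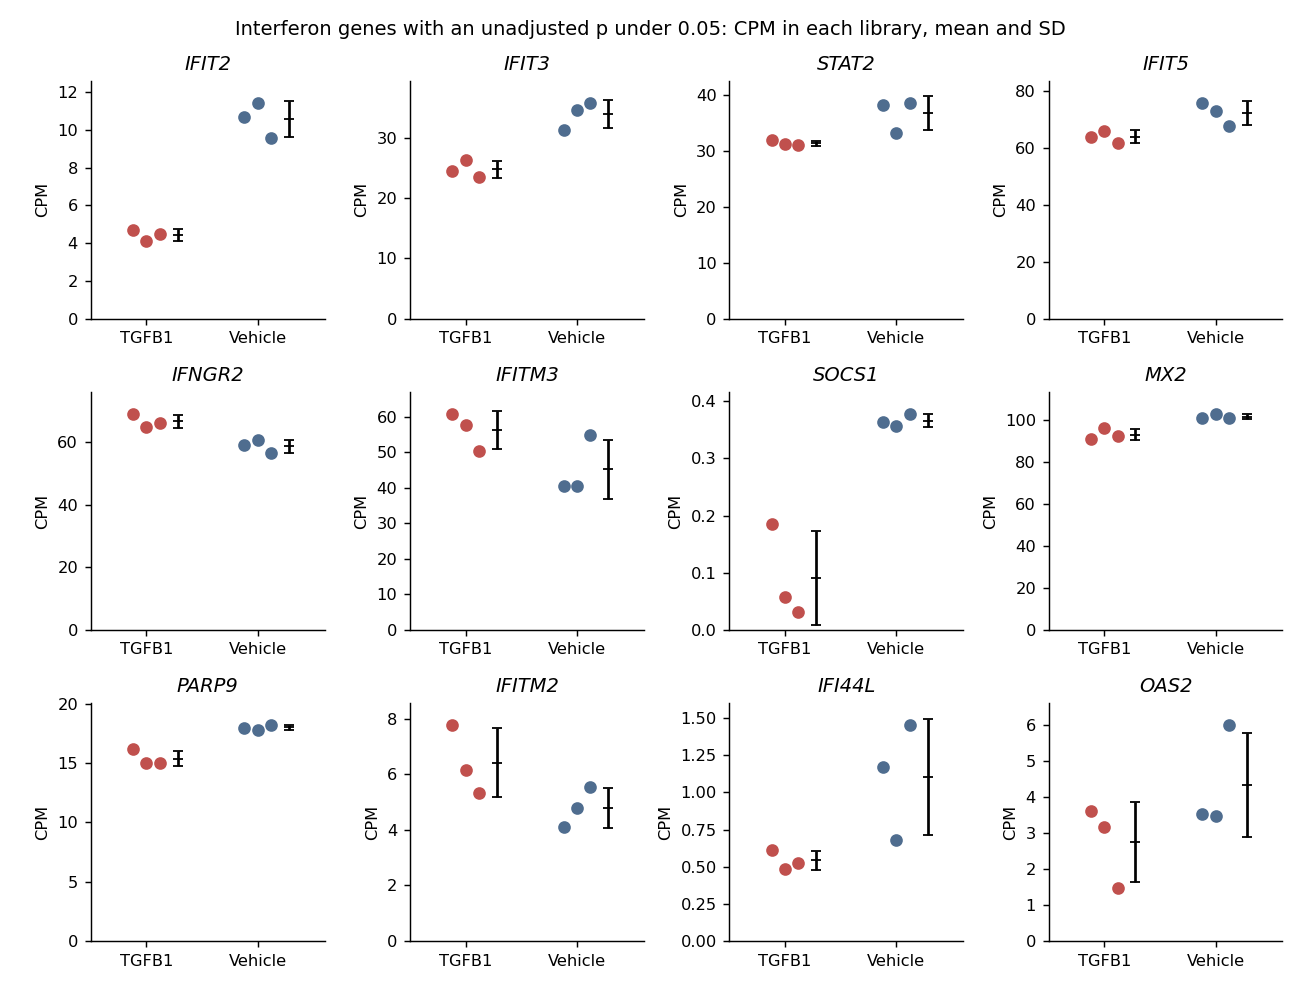
CPM in each library (points), with mean and SD (bar), of the 12 interferon genes with an unadjusted p under 0.05, TGFB1 left of Vehicle, ordered by p. IFIT2 lies between 4.10 and 4.70 CPM with TGFB1 and between 9.54 and 11.4 CPM in Vehicle; IFITM3, IFITM2 and OAS2 overlap between the groups.

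The 4 IFIT members lie close together on chromosome 10 (GRCh38, GENCODE 29), IFIT2 at 89283694 to 89309276, IFIT3 at 89327894 to 89340971, IFIT1 at 89392546 to 89406486 and IFIT5 at 89414586 to 89421001, all on the plus strand. A further family gene outside the members, IFIT1B, lies between IFIT3 and IFIT1 at 89378056 to 89385205 on the same strand. It was under the filter, with 0, 1 and 0 counts with TGFB1 and 2, 6 and 1 counts in Vehicle. LIPA, the lysosomal lipase gene, runs along the other strand at 89213569 to 89414557, across IFIT2, IFIT3 and IFIT1. The region was examined after the values of IFIT2 and IFIT3 were seen. Within 500 kb on either side of the cluster 11 genes were tested, and IFIT2 and IFIT3 were the 2 called. The 7 tested genes outside the family were STAMBPL1, ACTA2-AS1, ACTA2, FAS, LIPA, PANK1 and KIF20B. They gave 0 calls, where 3.31% of all tested genes were called. Of the 7, 6 had log2 fold changes below 0, against 52.0% of all tested genes. So few genes, in a region picked after the result, cannot show whether the region differs from other genes. KIF20B, a kinesin gene, had -0.16 ± 0.05 (SE) without overlap between the groups (adjusted p = 0.13, edgeR), much like IFIT5. The actin gene ACTA2 had -0.53 ± 0.32 (SE), also without overlap. Of all tested genes 7.32% were lower without overlap. LIPA shares 1.6% of the exon length of IFIT2 and had a log2 fold change of 0.01 ± 0.06 (SE). Another 8.7% of the IFIT2 exon length is shared with another gene on the same strand that had at most 1 count in a library.

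**Figure D4:**
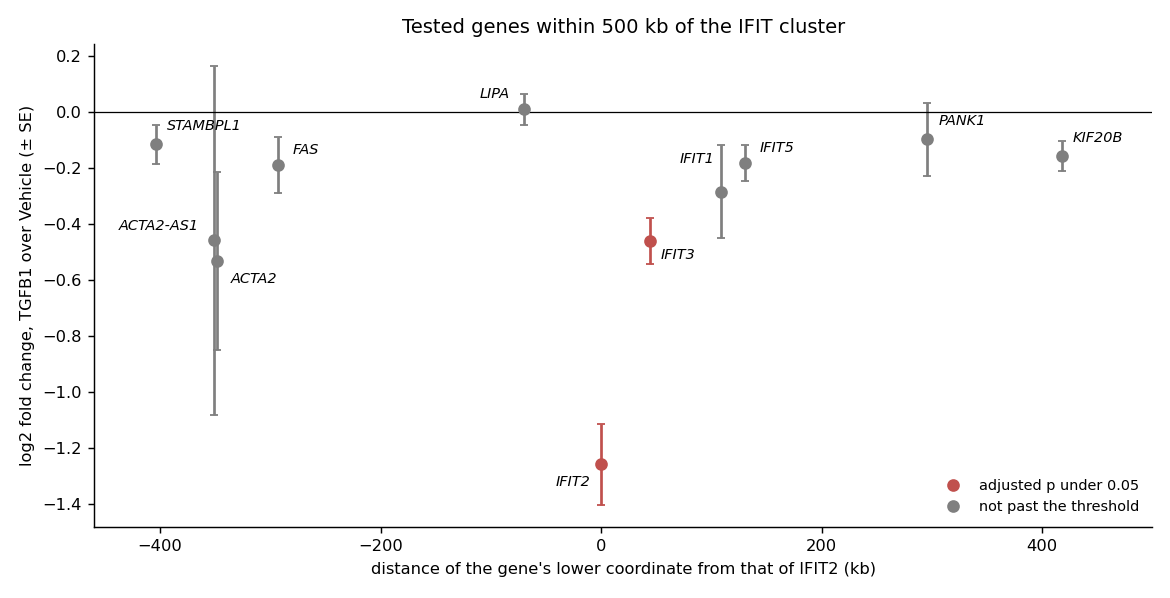
Log2 fold change of TGFB1 over Vehicle with its SE for the 11 tested genes within 500 kb of the IFIT cluster, against the distance in kb of each gene's lower coordinate from that of IFIT2. IFIT2 and IFIT3 are the 2 genes past the threshold. Of the 7 genes outside the family 6 lie below 0, against 52.0% of all tested genes. KIF20B is at -0.16, ACTA2 at -0.53 and LIPA at 0.01.

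The make-up of the IFIT transcripts was compared next. On a per-length scale IFIT2 made up 4.15%, 3.45% and 4.12% of the summed IFIT1, IFIT2, IFIT3 and IFIT5 level with TGFB1 and 7.35%, 7.81% and 6.83% in Vehicle. This share restates the fall of IFIT2 beside its neighbours and is no separate evidence for it. The difference was -3.42 percentage points (exact permutation test over the 6 libraries, two-sided, p = 0.1, the smallest p that 3 against 3 allows, so the test could not pass). IFIT3 made up 33.8% ± 0.46 with TGFB1 and 36.7% ± 3.20 in Vehicle (SD, n = 3 each), and these shares overlapped. IFIT5 held 57.5% ± 0.52 with TGFB1 and 51.3% ± 1.97 in Vehicle, and IFIT1 4.797% ± 0.47 with TGFB1 and 4.63% ± 1.00 in Vehicle. Such a share does not depend on library size, and shares of 1 sum move against each other.

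**Figure D5:**
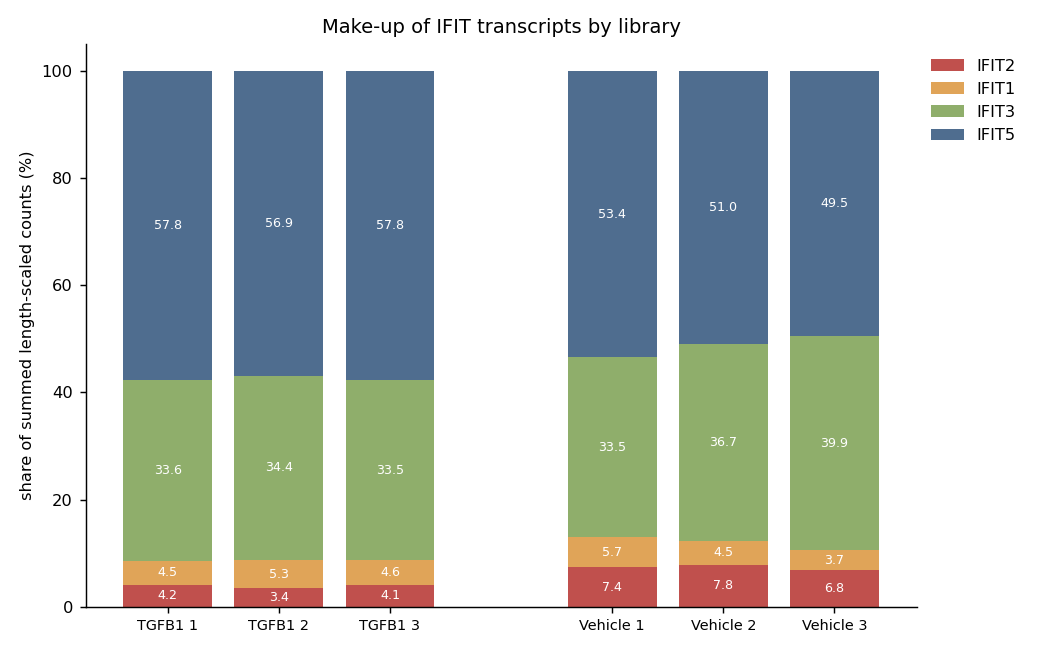
Share (%) of IFIT2, IFIT1, IFIT3 and IFIT5 in their summed length-scaled counts, 1 bar for each library, TGFB1 left of Vehicle. The IFIT2 share is 3.45% to 4.15% with TGFB1 and 6.83% to 7.81% in Vehicle.

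The other antiviral families showed no call. Of the OAS genes, which encode enzymes activated by double-stranded RNA, OAS1 and OAS3 had log2 fold changes of 0.00 ± 0.16 and -0.01 ± 0.10 (SE). OAS2 had 3.60, 3.15 and 1.48 CPM with TGFB1 and 3.52, 3.47 and 5.99 CPM in Vehicle. Its log2 fold change of -0.67 ± 0.28 (SE, adjusted p = 0.30, edgeR) rested on the lowest TGFB1 and the highest Vehicle library, and the groups overlapped. The 3 genes are neighbours on chromosome 12.

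Among the GTPase genes, MX2, which restricts retroviruses, had 90.8, 96.2 and 92.3 CPM with TGFB1 and 101.0, 103.0 and 100.9 CPM in Vehicle. Its groups did not overlap, and the log2 fold change was -0.13 ± 0.06 (SE, adjusted p = 0.26, edgeR). Its neighbour on chromosome 21, MX1, had 9.13, 8.02 and 6.78 CPM with TGFB1 and 8.50, 7.45 and 6.17 CPM in Vehicle, a log2 fold change of 0.11 ± 0.15 (SE). GBP1 and GBP2, interferon gamma targets, had values of -0.09 ± 0.24 and -0.17 ± 0.11 (SE) on the same scale.

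The 3 IFITM genes had positive log2 fold changes, under each scaling tried, and none passed. IFITM3 had 60.8, 57.7 and 50.4 CPM with TGFB1 and 40.4, 40.4 and 54.9 CPM in Vehicle. Vehicle replicate 3 stood with the TGFB1 libraries, and the log2 fold change was 0.31 ± 0.10 (SE, adjusted p = 0.18, edgeR). Without that library the log2 fold change was 0.46 with an adjusted p = 1.4e-05 (edgeR), and without TGFB1 replicate 3 the adjusted p was 0.037. IFITM2 had 7.78, 6.16 and 5.33 CPM with TGFB1 and 4.09, 4.795 and 5.53 CPM in Vehicle, and the groups overlapped (log2 fold change 0.40 ± 0.17, SE, adjusted p = 0.27, edgeR). IFITM1 had 10 to 36 counts a library. These genes are close copies of each other and IFITM1 shares 32.5% of its exon length with IFITM2, so the counts of single members are uncertain.

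Among the IFI genes, IFI44L had 0.62, 0.49 and 0.52 CPM with TGFB1 and 1.17, 0.68 and 1.45 CPM in Vehicle. Its groups did not overlap at these low counts, and the log2 fold change of -1.03 ± 0.43 (SE) did not pass (adjusted p = 0.28, edgeR). Its neighbour and paralog IFI44, with a Vehicle level of 25.15 ± 2.06 CPM, had a log2 fold change of -0.05 ± 0.09 (SE). IFI6 and IFI35 had 0.06 ± 0.11 and 0.05 ± 0.10 (SE). IFI27 was under the filter, with 2, 1 and 1 counts with TGFB1 and 6, 8 and 2 counts in Vehicle.

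ISG15, the ubiquitin-like modifier, had 3.38, 3.01 and 2.87 CPM with TGFB1 and 2.91, 3.66 and 4.04 CPM in Vehicle, a log2 fold change of -0.21 ± 0.20 (SE). HERC5, the ligase that attaches it to proteins, had 4.95, 6.36 and 5.92 CPM with TGFB1 and 5.95, 6.03 and 5.004 CPM in Vehicle, a log2 fold change of 0.02 ± 0.16 (SE). Both overlapped between the groups.

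Of the 8 other effector genes 6 were tested and none passed. PARP9, an ADP-ribosyltransferase family gene, had 16.1, 14.99 and 15.004 CPM with TGFB1 and 18.0, 17.8 and 18.2 CPM in Vehicle. The groups did not overlap, and the log2 fold change was -0.24 ± 0.10 (SE, adjusted p = 0.27, edgeR). DTX3L, which starts head to head with PARP9 and encodes its partner, had a log2 fold change of -0.13 ± 0.08 (SE). The nuclease gene ISG20 was higher in each TGFB1 library than in any Vehicle library, at 20.8, 23.8 and 21.9 CPM with TGFB1 and 19.5, 20.7 and 20.1 CPM in Vehicle (log2 fold change 0.13 ± 0.09, SE). SAMD9 and its neighbour SAMD9L, the antibody receptor gene TRIM21 and the virus tether gene BST2 had values between -0.18 and 0.31. RSAD2, which encodes viperin, had 7, 18 and 6 counts with TGFB1 and 5, 3 and 12 counts in Vehicle. OASL and XAF1 were likewise under the filter, with 1 to 15 and 1 to 5 counts with TGFB1 and 2 to 8 and 0 to 8 counts in Vehicle.

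A wider list of 90 further interferon pathway genes was chosen with earlier results of these data known, so its shares describe the list only. It gave 3 calls among 68 tested (4.41%, against 3.31% of all tested genes). All 3 were higher with TGFB1 (against 2.43% of all) and all were in the group of signalling and regulatory factors. IRF2BPL, an IRF2-binding protein-like gene, had 82.9 ± 4.48 CPM with TGFB1 and 50.8 ± 1.75 CPM in Vehicle (SD, n = 3 each). Its log2 fold change was 0.70 ± 0.06 (SE, adjusted p = 2.1e-10, edgeR). IRF2BP2, which encodes a corepressor that binds IRF2, had 123.4 ± 3.59 CPM with TGFB1 and 81.5 ± 2.75 CPM in Vehicle, and its log2 fold change was 0.59 ± 0.05 (SE, adjusted p = 7.5e-10, edgeR). IRF2 itself had a log2 fold change of -0.09 ± 0.09 (SE). SOCS3, an inhibitor of cytokine receptor signalling, had 24.99 ± 0.40 CPM with TGFB1 and 16.1 ± 1.88 CPM in Vehicle, and its log2 fold change was 0.63 ± 0.10 (SE, adjusted p = 3.2e-05, edgeR). For all 3 genes each TGFB1 library was above each Vehicle library. IRF2BP2 and IRF2BPL share 14.7% and 14.8% of their exon length with genes on the other strand.

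The rest of that list gave no call. Of 46 further interferon-stimulated genes 37 were tested and 0 passed, with a median log2 fold change of -0.0033, while 1 was higher and 3 were lower at an unadjusted p under 0.05, where 7.41% of all tested genes were higher and 4.87% lower. Among them APOL6, an apolipoprotein L family gene, had -0.24 ± 0.09 (SE) and the promyelocytic leukaemia gene PML 0.26 ± 0.11 (SE) on the log2 scale. The adaptor gene MYD88 had 4.62 ± 0.16 CPM with TGFB1 and 3.24 ± 0.80 CPM in Vehicle, without overlap, and an adjusted p = 0.22 (edgeR). The chemokine gene CXCL10, a classical interferon target, was under the filter at 3, 6 and 1 counts with TGFB1 and 18, 12 and 10 counts in Vehicle, and so had no test in the filtered fit. With no low-count filter it was not among the calls.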

How the data were processed

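RNA-seq was run on 3 TGFB1 and 3 Vehicle libraries of A375 cells. The deposited values are raw counts per Ensembl gene. The submitters' processing notes name cutadapt, TopHat2 2.1, HTSeq and build GRCh38. For the annotation release, counting mode and strand setting, the answer is not given in the sources used here. The extraction protocol describes ribosomal RNA depletion while the molecule label says polyA RNA. Columns were matched to samples by their description labels, and 56948 of 58051 rows had a symbol by gene ID.

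Low genes were removed by filterByExpr (at least 10 counts in enough libraries and 15 in total). TMM scaling was followed by the quasi-likelihood F-test of edgeR 4.0.16 in R 4.3.3, with robust settings and the group as the only term. Benjamini-Hochberg adjustment ran across 16690 genes, and calls needed an adjusted p under 0.05. The SE is the absolute log2 fold change divided by the square root of F. TPM used exon-union lengths of GENCODE 29, a release that may differ from the one counted against, and depend on abundant short RNAs in each library. The script was tested on simulated data. The members and lists were chosen with earlier results of these data known.

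Full values are given for members with an unadjusted p under 0.05, for the 2 most abundant of a role group without one, and for listed pathway genes past the threshold. Other genes with values were added after their values were seen. Same-numbered libraries did not deviate together (correlations -0.03, 0.04 and 0.01), so no pairing by number was seen. No library was a copy of another: within groups, the mean squared difference of pairs was 5.04 to 25.1 times the counting variance. Alternatives were other scalings, other filters, a replicate block, DESeq2 1.42.0, limma-voom (limma 3.58.1) and leaving out each library.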

Additional observations from a re-analysis of the deposited data

How the results depend on the processing

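IFIT2 and IFIT3 passed under all 14 alternatives, with log2 fold changes of -1.34 to -1.19 and -0.51 to -0.43 and adjusted p up to 2.3e-05 and 0.0066. IRF2BPL, IRF2BP2 and SOCS3 also passed under all 14. Leaving out 1 library gave 365 to 923 calls over all genes, 2 to 4 among the interferon members and 3 to 5 in the wider list. The highest counts came without Vehicle replicate 3, when IFIT5 and IFITM3 passed as well (4 members, 8.89% against 5.37% of all tested genes), and APOL6 and MYD88 in the wider list; the lowest over all genes, 365, came without TGFB1 replicate 1. IFITM3 also passed with no low-count filter (adjusted p = 0.00088). The cause was not tested. Without 1 library the member median ran from -0.03 to -0.0022. With the replicate number as a block 601 genes and the same 2 members were called. The correlations of same-numbered libraries showed no pairing by number, though they cannot exclude one. The log2 fold changes of EIF2AK2, DDX60 and HERC5, none of them called, reversed without single libraries. EIF2AK2 ran from -0.10 to 0.014 and was above 0 without TGFB1 replicate 2, Vehicle replicate 2 or Vehicle replicate 3. DDX60 ran from -0.11 to 0.19 and was below 0 without TGFB1 replicate 3. HERC5 ran from -0.079 to 0.12 and was below 0 when TGFB1 replicate 2 or 3 or Vehicle replicate 3 was left out. Depth limits the genes under 1 TPM, SOCS1, IFI44L and IRF9 among them, where changes rest on few reads.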
